A study of Arabidopsis thaliana with 6 samples.

Results

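Family 1 UDP-glycosyltransferases (UGTs) were examined in leaves of Arabidopsis thaliana moved to air with little CO2. They were chosen by gene family, as 45 loci of the UGT71, UGT72, UGT73, UGT74, UGT75, UGT76, UGT84, UGT85, UGT87 and UGT89 subfamilies mainly outside flavonoid and glucosinolate synthesis, and 38 of them were among the 21430 probe sets of the array. The other 7 loci (AT1G05675, AT2G36770, AT2G36780, UGT73B2, UGT73B3, UGT73C6 and DOGT1) were not analysed here. No measured value stands in that rule, but the set was proposed with the low CO2 against ambient CO2 differences of these arrays already known, so those differences are given as a description of the genes and support nothing by themselves.

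All plants were grown in soil at 400 ppm CO2 under short days for 6 weeks, with no mutant or transgene named in the labels. The low CO2 group, 3 arrays, came from plants then held at 100 ppm CO2 for 24 h, and the ambient CO2 group, 3 arrays, from plants that stayed at 400 ppm. Each array was hybridised with leaf RNA pooled over 4 to 5 plants, so a level is an average over plants and over all cell types of the leaf, and fewer cells of a type and less RNA per cell cannot be told apart. The labels name neither the accession of the plants nor the hour of harvest.

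UGTs of this family transfer a sugar, most often glucose from UDP-glucose, onto hormones, phenolics and foreign chemicals. The sugar makes a compound more soluble and usually less active and prepares it for storage in the vacuole, and beta-glucosidases can release the compound again. Plant genomes hold many such genes, often as rows of neighbouring copies, and some of them are known in Arabidopsis for strong responses to hydrogen peroxide, to pathogens and to xenobiotics.

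One array bears on every value that follows. Low CO2 replicate 1 correlated more closely with the 3 ambient arrays (r between 0.980 and 0.986 across 16210 probe sets, which are not independent replicates) than with low CO2 replicates 2 and 3 (0.962 and 0.947), which correlated with each other at 0.992. It stays in its group here, and the counts and the gene differences that its omission moved most are also given without it. Values are log2 expression, on a scale whose percentile 25 on each array lay between 3.96 and 4.05, and log2 4 is used below as the lower end. The labelled tissue was checked against markers. The 3 of 5 leaf markers with a probe set averaged between 13.47 and 13.70 on every array, and the 7 root markers and the 4 flower and seed markers averaged between 3.65 and 4.13. The 3 guard cell markers averaged 5.93 to 6.18 in low CO2 and 6.49 to 6.88 at ambient CO2, and their part in the results was not tested.

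A small group of UGT genes was far higher in low CO2, most of the others differed little, and none was far lower. Of the 38 genes, 9 were at least 2-fold higher in the group mean, where 2.71% of all probe sets were, and 0 were at least 2-fold lower, where 0.859% of all were. Without low CO2 replicate 1 these counts became 12 (4.54% of all probe sets) and 0 (2.73%). The absolute log2 difference was under 0.3 for 20 of the 38. The median difference was 0.18, with a range from -0.41 to 6.65, and over all probe sets the median was -0.02. On low CO2 replicates 1, 2 and 3 the median of the 38 genes lay 0.17, 0.24 and 0.23 above the ambient mean.

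The groups did not overlap for 17 of the 38 genes. For 15 genes each low CO2 value exceeded each ambient value, where 12.3% of all probe sets showed this, and for 2 genes the reverse held, where 12.6% did. UGT73C2 and UGT71C3 among the 15, and both genes of the reverse order, were below log2 4 on every array. Of the 38 genes, 26 passed the filter of log2 4 on 3 or more arrays and entered the fit of 16210 probe sets. Limma called 0 of the 26 at an adjusted p under 0.05, as it did for 0% of all probe sets in either direction. At an unadjusted p under 0.05, limma found 13 of the 26 higher and 0 lower, where 13.5% and 12.6% of all tested probe sets were higher and lower. With low CO2 replicate 1 left out, 14 of the 26 rose and 0 fell by limma's adjusted p, where 16.8% of all tested probe sets rose and 18.5% fell. Of the 26 genes, 4 (UGT74E2, UGT73C1, UGT73B5 and UGT76D1) reached log2 4 on fewer than 3 ambient arrays, so their passing drew on low CO2 values. Over the other 22 genes the counts were 10 higher and 0 lower at the unadjusted p, and 11 and 0 by limma's adjusted p without low CO2 replicate 1. The share of all probe sets under the same restriction was not computed, so the shares above are not a like background for these counts. The array left out is the one that stood apart, so that fit understates the spread between low CO2 pools.

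**Figure D1:**
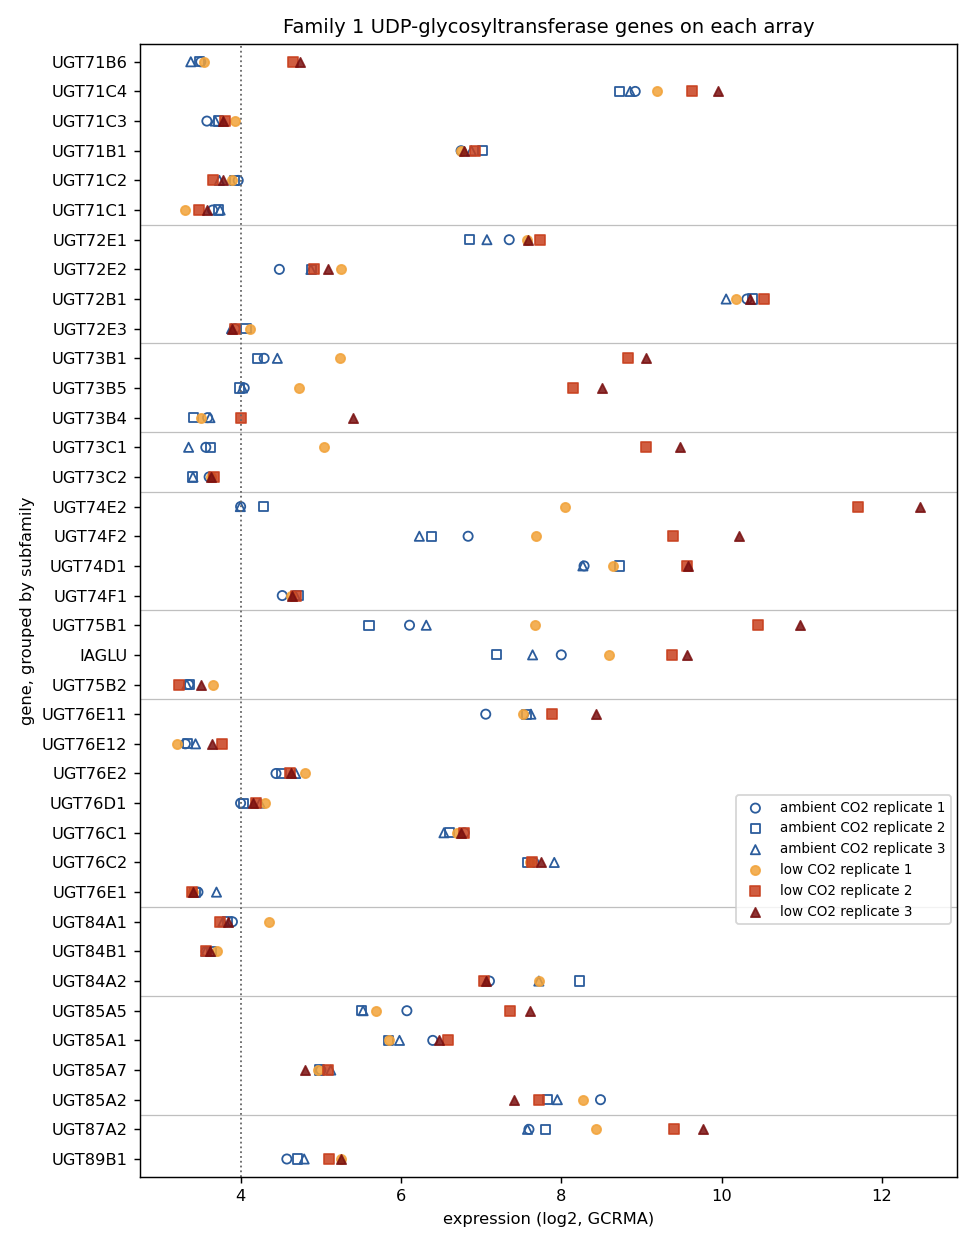
Expression of the 38 UGT genes on each of the 6 arrays (x axis, log2 GCRMA values), with genes in rows and grey lines between subfamilies. Filled symbols are low CO2 arrays, open symbols ambient CO2 arrays, 1 symbol per array, and the dotted line marks log2 4. The wide gaps lie in UGT73B, UGT73C, UGT74 and UGT75, where low CO2 replicate 1 falls between the ambient arrays and the other low CO2 arrays.

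The subfamilies differed in how much of this they held. The median log2 difference was 3.11 over the 3 UGT73B genes, 2.26 over the 2 UGT73C genes, 1.72 over the 4 UGT74 genes and 1.57 over the 3 UGT75 genes. It was 0.22 over 4 UGT72 genes, 0.12 over 7 UGT76 genes, 0.07 over 4 UGT85 genes, 0.06 over 6 UGT71 genes and 0.04 over 3 UGT84 genes. UGT87A2 and UGT89B1 together had 1.03. These medians hide wide ranges, since UGT73C, UGT74 and UGT75 each also held a gene that differed by 0.17 or less. Without low CO2 replicate 1 the medians became 4.31 in UGT73B, 2.97 in UGT73C, 2.23 in UGT74, 1.86 in UGT75 and 0.19 in UGT85, and the UGT84 median became -0.04. The UGT85 median turned to -0.03 without low CO2 replicate 2.

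UGT74E2 (probe set AT1G05680_at), which glucosylates the auxin indole-3-butyric acid and is known to respond to hydrogen peroxide, had the largest low CO2 minus ambient CO2 difference of all 21430 probe sets. Its log2 level was 8.05, 11.71 and 12.48 on low CO2 replicates 1, 2 and 3 and 4.00, 4.29 and 3.99 on the ambient arrays. Every low CO2 array was far above every ambient array, and the ambient values sat at the lower end of the scale. The difference was 6.65 (SE 1.05), or 101-fold. Omitting low CO2 replicate 1 gave 8.0, or 256-fold, and omitting replicate 3 gave 55.2-fold. On low CO2 replicate 1 alone the gene still lay 3.96 above the ambient mean, the difference of rank 2 among all probe sets on that array. A ratio over a level at the lower end depends on where GCRMA sets its background.

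The UGT73 genes came next. UGT73C1 (AT2G36750_at), which can act on cytokinins and on the explosive trinitrotoluene, stood at 5.04, 9.05 and 9.49 on the low CO2 arrays and at 3.56, 3.62 and 3.35 on the ambient arrays. The groups did not overlap, and replicate 1 covered a small part of the distance. The measured difference was 4.35 (SE 1.09). As all ambient values lay below log2 4, the ratio is given against that level, and low CO2 was at least 14.5-fold higher. Omitting replicate 1 gave at least 38.6-fold and omitting replicate 3 at least 8.25-fold. UGT73B1 (AT4G34138_at) read 5.24, 8.83 and 9.05 in low CO2 and 4.29, 4.21 and 4.46 at ambient CO2. Here too the groups were apart, with replicate 1 closer to ambient air than to its own group. The 10.5-fold difference was 24.6-fold without replicate 1 and 6.57-fold without replicate 3. The ambient values of UGT73B1 lay just above the lower end, so these ratios also depend on where GCRMA sets its background. UGT73B5 (AT2G15480_at), a gene needed for full resistance to Pseudomonas syringae, read 4.73, 8.15 and 8.51 against 4.04, 3.98 and 4.02. Its 3 ambient arrays agreed within an SD of 0.03, the 3 low CO2 arrays within an SD of 2.09. The ambient values sat at the lower end, so their SD and the difference depend on where GCRMA sets its background. The difference of 3.11 (SE 0.93) was 4.31 without replicate 1 and 2.42 without replicate 3.

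The remaining UGT73 genes lay at the lower end on most low CO2 arrays as well as at ambient CO2. UGT73B4 (AT2G15490_at), which also acts on trinitrotoluene, read 3.50, 4.00 and 5.40 in low CO2 and 3.59, 3.40 and 3.61 at ambient CO2. Only replicate 3 was clearly above log2 4, the groups overlapped, and the difference of 0.76 was 0.21 without that array and 1.17 without replicate 1. UGT73C2 was below log2 4 on all 6 arrays.

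UGT75B1 (AT1G05560_at), which glucosylates p-aminobenzoate and was found with callose synthase at the cell plate, stood at 7.67, 10.45 and 10.97 on the low CO2 arrays. On the ambient arrays it stood at 6.11, 5.60 and 6.31. The groups were well apart from a level clear of the lower end, with a difference of 3.69 (SE 0.81), or 12.9-fold. The ratio was 26.1-fold when replicate 1 was omitted and 8.32-fold when replicate 3 was.

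**Figure D2:**
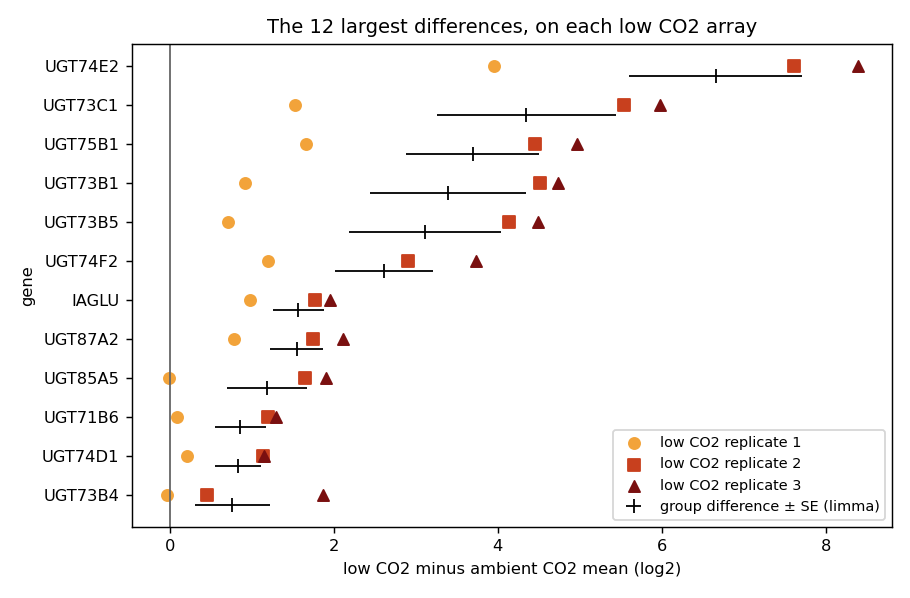
The 12 UGT genes with the largest absolute group difference (rows). Coloured symbols give each low CO2 array minus the mean of the 3 ambient arrays (x axis, log2), and the black mark with its bar gives the group difference ± SE from limma. Low CO2 replicate 1 is the lowest of the 3 low CO2 arrays in every row.

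Enzymes of salicylate conjugation differed from each other. UGT74F2 (AT2G43820_at) makes salicylate glucose ester and salicylate glucoside, which store the defence hormone. It read 7.68, 9.39 and 10.21 in low CO2 and 6.84, 6.38 and 6.23 at ambient CO2. All low CO2 arrays were above all ambient arrays, by 2.61 (SE 0.60) or 6.12-fold in the mean. Omitting replicate 1 gave 3.32 and omitting replicate 3 gave 2.05. UGT74F1 (AT2G43840_at), its close relative that makes the glucoside, stood at 4.63, 4.69 and 4.64 against 4.52, 4.71 and 4.68, a difference of 0.01 (SE 0.11) whose sign turned under median centring. UGT76D1, which glucosylates the dihydroxybenzoates formed from salicylate, differed by 0.12 (SE 0.12), with overlapping groups. UGT71C3, which acts on methyl salicylate, was below log2 4 on all 6 arrays.

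Besides UGT74E2, 3 enzymes of auxin conjugation are described here. They are not a full list of the measured genes that can act on auxins. IAGLU, the indole-3-acetate glucosyltransferase of AT4G15550_at, stood at 8.59, 9.38 and 9.57 in low CO2 and at 8.0, 7.19 and 7.64 at ambient CO2. The groups did not overlap, and the 2.97-fold difference (log2 1.57, SE 0.31) was 3.64-fold when replicate 1 was omitted. UGT74D1 (AT2G31750_at), which acts on indole-3-acetate and its oxidised form, read 8.64, 9.56 and 9.58 against 8.28, 8.73 and 8.27. Ambient replicate 2 lay above low CO2 replicate 1, and the difference was 0.83 (SE 0.28), or 1.14 without low CO2 replicate 1. UGT84B1, another indole-3-acetate glucosyltransferase, was below log2 4 on all 6 arrays.

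UGT71B6, an enzyme that acts on abscisic acid, was near the lower end, and 3 cytokinin enzymes other than UGT73C1 differed little. UGT71B6 (AT3G21780_at) forms abscisic acid glucose ester and read 3.55, 4.65 and 4.74 in low CO2 and 3.50, 3.48 and 3.38 at ambient CO2. Replicates 2 and 3 stood above the lower end and replicate 1 within it, so the gene missed the filter, and its difference of 0.86 was 1.25 without replicate 1. The cytokinin N-glucosyltransferases UGT76C1 and UGT76C2 differed by 0.10 (SE 0.11) and -0.06 (SE 0.13), and the sign of UGT76C2 turned without ambient replicate 3. UGT85A1, which glucosylates zeatin, differed by 0.23 (SE 0.24), with low CO2 replicates 1, 2 and 3 at -0.23, 0.51 and 0.41 from the ambient mean. The groups overlapped for these 3 cytokinin enzymes.

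Phenylpropanoid UGTs had smaller differences, of either sign. UGT72E1, UGT72E2 and UGT72E3 glucosylate lignin precursors. UGT72E1 stood at 7.57, 7.74 and 7.59 in low CO2 against 7.35, 6.86 and 7.07, with no overlap and a difference of 0.54 (SE 0.15). Its 3 low CO2 arrays agreed within an SD of 0.09, replicate 1 included. UGT72E2 differed by 0.34 (SE 0.16), with replicate 1 the highest of the low CO2 arrays, and UGT72E3 by 0.02 at the lower end, with the opposite sign under median centring. UGT72B1, which detoxifies chlorinated phenols and anilines, differed by 0.10 (SE 0.15). UGT84A2, the sinapate glucosyltransferase of sinapoyl ester synthesis, had the most negative difference of the 38 genes, -0.41 (SE 0.32). It read 7.73, 7.03 and 7.06 in low CO2 and 7.10, 8.23 and 7.72 at ambient CO2, so the ambient arrays alone spanned over 1 log2 unit, which no other of the 38 genes did. UGT84A1, which acts on other hydroxycinnamates, reached log2 4 on low CO2 replicate 1 only.

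The genes not grouped by substrate here included a few clear differences. UGT87A2 (AT2G30140_at), known for a part in flowering time, read 8.44, 9.41 and 9.77 in low CO2 and 7.60, 7.80 and 7.58 at ambient CO2. The groups were apart by 1.55 (SE 0.32), or 2.92-fold, and by 3.81-fold when replicate 1 was omitted. UGT85A5 (AT1G22370_at) read 5.69, 7.35 and 7.61 against 6.07, 5.50 and 5.53. Replicate 1 lay within the ambient range, so the groups overlapped, and the 2.27-fold difference was 3.44-fold without replicate 1 and 1.77-fold without replicate 3. UGT71C4 differed by 0.76 (SE 0.20) without overlap. UGT89B1 differed by 0.51 (SE 0.11) without overlap, and on this gene replicates 1, 2 and 3 lay 0.56, 0.41 and 0.56 above the ambient mean, so replicate 1 did not stand apart. UGT76E11 differed by 0.53 (SE 0.26) with overlapping groups, and the other UGT76E genes by -0.13 to 0.18. UGT85A2, UGT85A7 and UGT71B1 differed by -0.29 (SE 0.27), -0.08 (SE 0.12) and -0.07 (SE 0.12) with overlapping groups. The 2 genes whose low CO2 values lay below all ambient values were UGT71C1 (-0.25) and UGT76E1 (-0.13), both below log2 4 on all 6 arrays. UGT71C2, UGT75B2 and UGT76E12, which also stayed below log2 4 throughout, differed by -0.10, 0.12 and 0.18.

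Neighbouring copies were compared because many of these genes stand side by side. In the order of protein-coding genes in the RefSeq table, 26 of the 45 loci fell into 10 runs with no other gene between, and both genes had a probe set in 9 adjacent pairs. The log2 differences of the 2 neighbours were at least 1 apart in 4 pairs and closer in 5. UGT73C1 and UGT73C2 differed by 4.35 and 0.17, UGT74F2 and UGT74F1 by 2.61 and 0.01, UGT73B5 and UGT73B4 by 3.11 and 0.76, and UGT85A5 and UGT85A2 by 1.18 and -0.29. In each of these pairs the neighbour's groups differed little or overlapped. The other 5 pairs were UGT71C4 with UGT71C3, UGT76E1 with UGT76E2, UGT85A7 with UGT85A2, UGT76C1 with UGT76C2 and UGT71C1 with UGT71C2. Their gaps ran from 0.15 to 0.58. UGT73C2, UGT71C3, UGT76E1, UGT71C1 and UGT71C2 were below log2 4 on all 6 arrays. A gap with any of these genes rests partly on signal at the lower end, and that of UGT71C1 with UGT71C2 wholly. With all arrays, no 2 adjacent measured genes were both at least 2-fold higher. Without low CO2 replicate 1, UGT73B5 and UGT73B4 both were, with differences of 4.31 and 1.17. Not analysed here were 4 of the 6 loci of the UGT73C run, 2 of the 3 loci of the UGT73B1 run and the neighbour of UGT74E2. Probe sequences were not used here, so the share of signal that close copies lend each other was not tested.

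**Figure D3:**
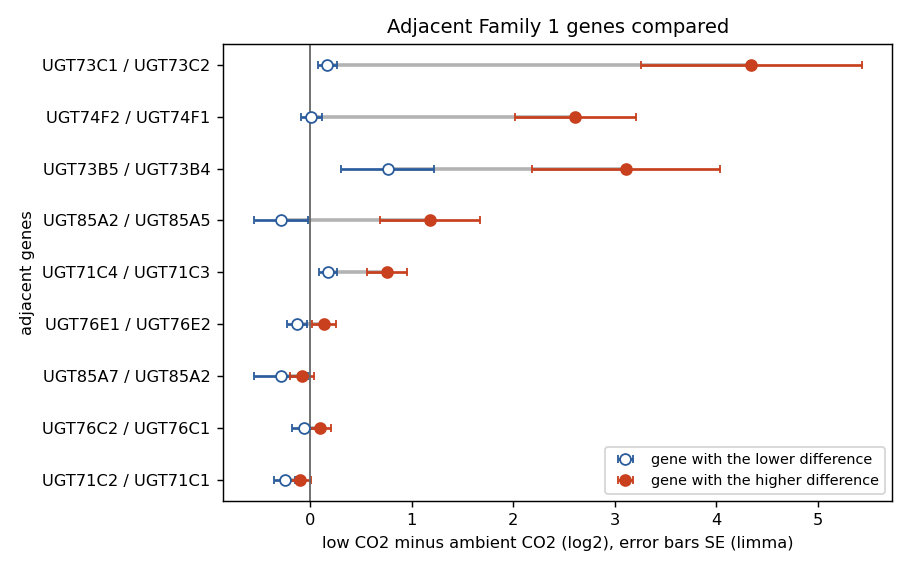
Low CO2 minus ambient CO2 difference (x axis, log2) for the 9 pairs of adjacent UGT genes in which both had a probe set. Points are group differences, bars are ± SE from limma, and a grey line joins the 2 genes of a pair. In the top 4 pairs the genes are at least 1 log2 unit apart, and in the lower 5 they lie closer. UGT73C2, UGT71C3, UGT76E1, UGT71C1 and UGT71C2 were below log2 4 on every array.

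UGT genes outside the 38 are set beside them here, without a test of the difference between the sets. The RefSeq table named 20 other Family 1 UGT genes, of which 19 had a probe set. Of these, 5 are also on the list of flavonoid and glucosinolate UGTs described below. Of the 14 not on that list, 6 had a higher and 8 a lower mean in low CO2, with a median of -0.0085. In the group mean 1 was at least 2-fold higher and 0 were at least 2-fold lower. Of the 9 tested, limma called 1 higher and 1 lower without low CO2 replicate 1, against 16.8% and 18.5% of all tested probe sets, and 0 with all arrays. The gene that rose was UGT84A3, a hydroxycinnamate glucosyltransferase, at 7.5, 8.23 and 8.81 in low CO2 and 6.38, 7.14 and 6.72 at ambient CO2, a difference of 1.44 (SE 0.35). Its close relatives among the 38, UGT84A1 and UGT84A2, differed by 0.14 and -0.41. UGT76B1, which conjugates salicylate and isoleucic acid, was below log2 4 on all 6 arrays.

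UGTs of flavonoid and glucosinolate synthesis had lower means in low CO2. All 8 on the list had a lower mean (7 of 8 after quantile normalization), the median was -0.55, and limma called 0 of the 7 tested with all arrays and 0 higher and 4 lower without low CO2 replicate 1. Of the 8, 1 was below log2 4 on every array. For this list and those that follow, limma's calls without low CO2 replicate 1 are to be read beside the same 16.8% higher and 18.5% lower of all tested probe sets. Their counts of lower and higher means are to be read beside 11606 lower and 9824 higher among all 21430 probe sets. UGT74B1, which forms the thioglucoside of glucosinolates, had a mean of 8.68 ± 0.36 (SD, n = 3) under low CO2 against 9.6 ± 0.19, without overlap. UGT78D1, the flavonol 3-O-rhamnosyltransferase, differed by -1.0 (SE 0.39), with low CO2 replicate 1 only 0.09 below the ambient mean, and by -1.45 without that array.

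Steps before and after glucosylation were mixed. Of 22 genes of UDP-sugar supply, 16 had a lower and 6 a higher mean, with a median of -0.18, or -0.09 without low CO2 replicate 1. Limma called 0 of them, and 2 higher and 9 lower without low CO2 replicate 1. UGE3, a UDP-glucose 4-epimerase, was higher by 1.60 (SE 0.35), while the UDP-glucose dehydrogenase genes UGD1 and UDG4 differed by -0.52 and -0.77 and the rhamnose synthase gene MUM4 by -0.78. Among 15 beta-glucosidases the median was -0.0012, and its sign turned when any array but low CO2 replicate 2 was left out. Limma called 0 of 13 tested, and 4 higher and 2 lower without low CO2 replicate 1. BGLU11 was higher by 1.85 (SE 0.43) and BGLU47 lower, at 6.72 ± 0.92 against 8.67 ± 0.55, both without overlap, while BGLU15 and BGLU6 differed by -0.36 and -0.66. Of 10 listed genes of malonylation and vacuolar transport, 9 had a probe set. Of these 9, 7 had a higher mean (6 after median centring), with a median of 0.15. Limma called 0 of the 8 tested, and 3 higher and 0 lower without low CO2 replicate 1. PMAT1, which adds malonate to phenolic glucosides, stood at 6.72, 8.56 and 8.88 in low CO2 and at 5.78, 5.77 and 5.63 at ambient CO2. Its groups were apart by 2.33 (SE 0.53), and by 2.99 without low CO2 replicate 1. Those of ABCC2, a vacuolar transporter of conjugates, were apart by 1.03 (SE 0.31).

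Regulators known from organelle signalling, stress and detoxification were higher in the mean for all 11 genes with a probe set, of 12 listed. After quantile normalization or median centring this held for 10 of them. The median was 0.55, and for 8 each low CO2 value exceeded each ambient value, as for 12.3% of all probe sets. Limma called 0 with all arrays, and 7 higher and 0 lower without low CO2 replicate 1. NAC032 stood at 9.11 ± 2.09 in low CO2 and 5.06 ± 0.10 at ambient CO2. NAC102 and NAC13, the latter a regulator of mitochondrial retrograde signalling, differed by 3.23 (SE 0.65) and 2.94 (SE 0.61). Without low CO2 replicate 1 the difference was 5.25 for NAC032, against 4.04 with it, 4.06 for NAC102 and 3.70 for NAC13. On low CO2 replicate 1 these 3 lay 1.63, 1.59 and 1.41 above the ambient mean. TGA5, a factor that binds promoters of detoxification genes, differed by 0.55 (SE 0.13), and by 0.50 on replicate 1.

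**Figure D4:**
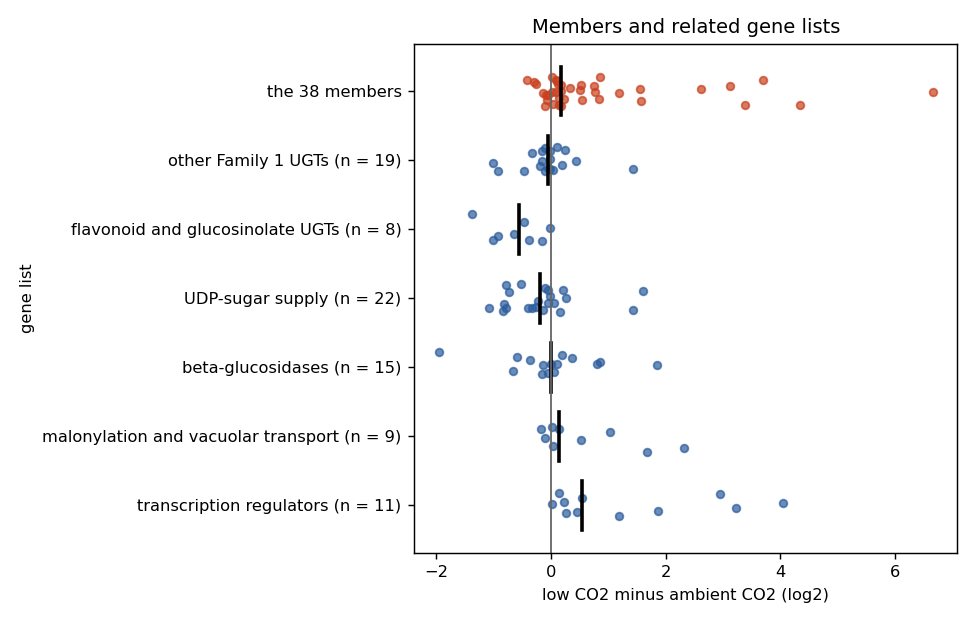
Low CO2 minus ambient CO2 difference (x axis, log2) of each gene in the 38 UGT genes (red) and 6 related lists (blue), with 1 point per gene, spread vertically for sight only. Black bars are medians, at 0.18 for the 38 genes, -0.55 for flavonoid and glucosinolate UGTs and 0.55 for transcription regulators, and 5 genes appear in both the first and the second blue list.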

How the data were processed

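RNA of 3 low CO2 and 3 ambient CO2 leaf pools, 5 µg each, was labelled with biotin and hybridised to Affymetrix arrays (per the labels' protocols). The log2 values are those the authors deposited, from GCRMA of unstated version, per the submitters' processing notes. GCRMA corrects background by probe sequence and draws weak probe sets to a common lower end. The log base was read from the values. Probe sets carry locus names, and as no source states their grouping or genome build, no coordinates are printed. Names and gene order are those of RefSeq's table for TAIR10.1, which held 21231 of the 21430 loci. In all, 221 probe sets share all 6 values with another, none of them among the 38 genes.

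Replicates are separate pools of plants. The labels give no batch or day. Probe sets that reached log2 4 on 3 or more arrays were fitted in limma 3.58.1 (R 4.3.3) with lmFit and eBayes, 2-sided, with Benjamini-Hochberg adjustment over 16210 probe sets. SEs come from that fit, or for genes below the filter from the fit of all probe sets. The fit was tested on simulated data. The exact permutation test with 3 arrays a group has a smallest p of 0.1 and was left out. Members and lists were chosen with earlier results of these data known. Values on every array were given for the 12 largest differences and for compared relatives, and 4 genes per list were eligible by smallest p, or 6 by size among other Family 1 UGTs. UGT72E1, UGT84A2, UGT84A3 and PMAT1 are also shown on every array, a choice made after their values were seen. Alternatives were no filter, a floor of log2 5, trend with robust eBayes, quantile normalization, median centring, a replicate block, array weights and each array left out. As the labels do not say that replicate numbers mark a batch or day, the numbers were not taken as pairs. Deviations from the group means of same-numbered arrays correlated at -0.19, 0.02 and -0.20, and of differently numbered arrays at -0.35 to 0.30. With 3 arrays a group, these correlations cannot exclude a shared batch. Figures were drawn with matplotlib 3.10.9.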

Additional observations from a re-analysis of the deposited data

How the results depend on the processing

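Limma's count of 0 called probe sets, and of 0 among the 26 tested UGT genes, stayed at 0 without the filter, with a floor of log2 5, with trend and robust settings, after quantile normalization or median centring, and with a replicate block. Array weights, whose fit stopped before its convergence tolerance, gave 10371 of the 16210 tested probe sets (4798 higher and 5573 lower). They gave 18 of the 26 tested UGT genes (17 higher and 1 lower), so most tested probe sets and most tested UGT genes alike were called. Leaving out low CO2 replicate 1 gave 5723 probe sets (2722 higher, 3001 lower) and 14 UGT genes, all higher. Leaving out any other single array gave 0 of either. Because low CO2 replicate 1 decides the calls, the number and spread of the low CO2 arrays limit every statement on single genes. Medians use no filter, so the floors do not apply to them. With 1 array left out, the median of the 38 genes ran from 0.17 to 0.22, that of UGT71 from 0.040 to 0.11, of UGT72 from 0.17 to 0.29, of UGT76 from 0.074 to 0.20 and of malonylation and transport from 0.12 to 0.23. Median centring gave 0.090 for UGT76 and 0.047 for the leaf markers, against 0.12 and 0.08, and quantile normalization gave 0.11 for the leaf markers. The median over all tested probe sets was -0.03 as deposited, -0.04 after quantile normalization and -0.06 after centring.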

Other observations

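UGT84A2, the sinapate glucosyltransferase, read 7.10, 8.23 and 7.72 on ambient replicates 1, 2 and 3. Of the 8 UGTs of flavonoid and glucosinolate synthesis, 5 had the same order of the ambient arrays, with replicate 2 highest and replicate 1 lowest. Among them UGT78D2, the flavonoid 3-O-glucosyltransferase, read 7.93, 9.0 and 8.42, and UGT79B1, which extends anthocyanins, read 5.65, 7.08 and 6.53. These genes were singled out after their values were seen, and no test was run.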
